A study of Mus musculus with 4 samples.

Results

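The genes described here encode the machinery that copies DNA and the enzymes that supply its deoxynucleotides, as measured in regulatory T (Treg) cells with and without the deubiquitinase CYLD. The list has 39 members, given by name for their function. Each was read from its probe set annotated with a single gene symbol, taking the brightest where a gene had several. All 39 were found among 19938 genes so represented, and 37 were bright enough to be tested; Orc1 and Gins1 were not. Expression was measured on 4 microarrays of total RNA, 2 per genotype, from YFP-positive Treg cells sorted from C57Bl6 mice aged 6 to 8 weeks. Wild-type mice were Cyld+/+ and knockout mice Cyld fl/fl, each with the Foxp3-yfp-cre allele. Both genotypes thus carry the Cre recombinase and the fluorescent protein expressed from Foxp3. In the knockout this Cre is meant to remove Cyld in cells that express Foxp3, and removal in other cells was not measured. The labels name spleen and lymph nodes as the source in one place and only spleen in another. They do not say whether replicates came from separate mice, so the spread between arrays behind the p-values may be technical, at least in the wild type. The 2 knockout arrays differed in sex-linked genes, as given below. The spread between arrays was pooled over all tested genes and is not each member's own.

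Before a cell can divide, the origin recognition complex, with CDC6 and CDT1, loads the ring-shaped MCM helicase onto DNA. CDC45, the GINS complex and MCM10 turn the loaded ring into a moving helicase, polymerase alpha with its primase lays down primers, and polymerases epsilon and delta extend them, held on DNA by the sliding clamp PCNA. Ribonucleotide reductase, thymidylate synthase, thymidine kinase and dUTPase set the supply of deoxynucleotides. Resting T cells hold most of these transcripts at low levels, and their transcription rises as cells pass from G1 into S phase, largely through the E2F transcription factors.

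RefSeq promoter windows (assembly GRCm38.p6, 250 bases before to 50 after the annotated start) were matched for 32 of the 39 members. A match to an E2F consensus, searched as TTTCCCGC or TTTGGCGC or TTTCGCGC or TTTGCCGC on both strands, lay in the window of 13 of these 32 (40.6%). The same letters lay in the windows of 704 of 27025 genes (2.61%). In 8 members, Orc1, Cdc6, Mcm5, Mcm6, Mcm7, Gins3, Pola1 and Rfc3, a match lay wholly before the start. Their 180 bases before the start are given to show where the letters lie. They were picked for holding these letters. In the other 5, Cdt1, Mcm3, Pole2, Pold1 and Lig1, matches lay only within the first 50 bases after the start. Capitals mark the E2F letters, which overlap each other in Mcm5 and Mcm6; each line reads 5′ to 3′ along the gene and ends at the base before the start.
Orc1 (chr4:108579274-108579453, plus strand): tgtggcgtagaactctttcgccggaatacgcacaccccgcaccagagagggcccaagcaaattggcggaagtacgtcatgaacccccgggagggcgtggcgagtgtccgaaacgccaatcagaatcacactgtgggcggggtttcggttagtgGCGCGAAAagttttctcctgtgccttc
Cdc6 (chr11:98907971-98908150, plus strand): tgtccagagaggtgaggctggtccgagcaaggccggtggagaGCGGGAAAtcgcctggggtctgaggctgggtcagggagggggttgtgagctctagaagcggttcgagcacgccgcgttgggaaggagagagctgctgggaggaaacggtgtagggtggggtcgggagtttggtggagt
Mcm5 (chr8:75109329-75109508, plus strand): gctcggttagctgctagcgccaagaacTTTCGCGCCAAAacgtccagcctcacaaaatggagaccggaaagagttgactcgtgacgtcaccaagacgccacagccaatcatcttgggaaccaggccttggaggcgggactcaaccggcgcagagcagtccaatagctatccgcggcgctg
Mcm6 (chr1:128359706-128359885, minus strand): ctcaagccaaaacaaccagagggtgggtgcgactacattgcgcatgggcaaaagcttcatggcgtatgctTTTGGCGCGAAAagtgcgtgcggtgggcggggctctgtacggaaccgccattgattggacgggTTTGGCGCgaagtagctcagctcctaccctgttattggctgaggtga
Mcm7 (chr5:138171884-138172063, minus strand): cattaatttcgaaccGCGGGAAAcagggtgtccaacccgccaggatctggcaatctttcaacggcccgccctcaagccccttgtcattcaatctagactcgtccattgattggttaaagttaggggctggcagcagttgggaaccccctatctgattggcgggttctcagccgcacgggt
Gins3 (chr8:95633379-95633558, plus strand): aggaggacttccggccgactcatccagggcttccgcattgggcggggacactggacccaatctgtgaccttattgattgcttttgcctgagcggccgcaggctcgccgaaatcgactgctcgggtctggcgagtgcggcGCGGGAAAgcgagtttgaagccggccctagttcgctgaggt
Pola1 (chrX:93632156-93632335, minus strand): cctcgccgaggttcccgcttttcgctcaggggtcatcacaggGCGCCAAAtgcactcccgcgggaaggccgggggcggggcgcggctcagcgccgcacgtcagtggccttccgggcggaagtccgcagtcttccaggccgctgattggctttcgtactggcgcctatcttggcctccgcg
Rfc3 (chr5:151651209-151651388, minus strand): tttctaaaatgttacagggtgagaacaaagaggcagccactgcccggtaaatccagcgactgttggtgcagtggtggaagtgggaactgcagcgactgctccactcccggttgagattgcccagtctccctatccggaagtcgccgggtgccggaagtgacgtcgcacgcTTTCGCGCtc

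In Mcm5 the matches began 153 and 149 bases before the start, and in Mcm6 110, 106 and 47 bases before it. The shorter CCAAT letters, searched on both strands, lay in the windows of 20 of the 32 members (62.5%) and of 11096 of all 27025 genes (41.1%). The window of Rrm2, the member with the largest change between genotypes, held none of the E2F letters and held CCAAT, marked in capitals, 50 bases before the start.
Rrm2 (chr12:24708074-24708253, plus strand): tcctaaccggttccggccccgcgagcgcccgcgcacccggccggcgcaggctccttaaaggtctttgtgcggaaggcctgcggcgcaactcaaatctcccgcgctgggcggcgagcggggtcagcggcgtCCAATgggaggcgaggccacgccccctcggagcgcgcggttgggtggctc
Of the 11 members called higher in the knockout that had a window, 4 held E2F letters, as did 8 of the 20 with a window that were tested and not called. These letter matches describe the sequence and do not show that a factor bound there.

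The targeted gene was checked first. Cyld read 524 and 502 in wild-type cells against 284 and 218 in knockout cells (log2 fold change -1.04, limma adjusted p = 8.89e-08). The deleted stretch of Cyld is not stated, nor whether these probes lie inside it. The second knockout array stood apart in sex-linked genes. The Y-linked Kdm5d read 271 and 275 in wild type, 268 in the first knockout array and 127 in the second. Eif2s3y, also Y-linked, read 253 and 219, then 221 and 98.9, and Xist read 1306 and 1403, then 1630.2 and 2321.

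The comparison of genotypes asks which replication transcripts differ when Treg cells lack CYLD. In the knockout 12 of the 37 tested members were higher and 0 were lower (limma, adjusted p under the threshold of 0.05); 21 were higher and 0 lower at an unadjusted p under 0.05. Over all 13956 genes tested, 4.79% were called higher and 3.50% lower. At an unadjusted limma p under 0.05, 1364 of these 13956 genes were higher and 1424 lower. The 12 were Mcm5, Mcm6, Mcm10, Cdc45, Pole, Pole2, Lig1, Rrm1, Rrm2, Tyms, Tk1 and Dut. The largest changes were in enzymes of deoxynucleotide supply, Rrm2 at 2.10-fold, Tk1 at 1.88-fold on the probe set kept and Dut at 1.68-fold. The median log2 fold change of the 37 members was 0.37, beside -0.02 for all tested genes. Both knockout values lay above both wild-type values in 30 of the 37, a pattern met in 22.5% of all tested genes. In bulk RNA, a larger share of cells in S phase and more of these transcripts per cell cannot be told apart.

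Intensities are on a linear scale and fold changes are differences of log2(intensity + 1). limma pooled the variance over all genes completely. Every log2 fold change thus carried a standard error of 0.17 and a 95% interval of ± 0.33. Among the called members, the standard error from the gene's own variance was above 0.17 in all but Cdc45 (0.14) and Pole2 (0.03). It was 0.33 in Rrm2 and 0.37 in Dut, so the pooled interval understates the spread between arrays in these genes. With each gene's own variance, 0 members were called (0 of all genes; 1 member, Pole2, and 1813 genes at an unadjusted p under 0.05). An exact permutation test of 2 arrays against 2 cannot give a two-sided p below 0.333.

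**Figure D1:**
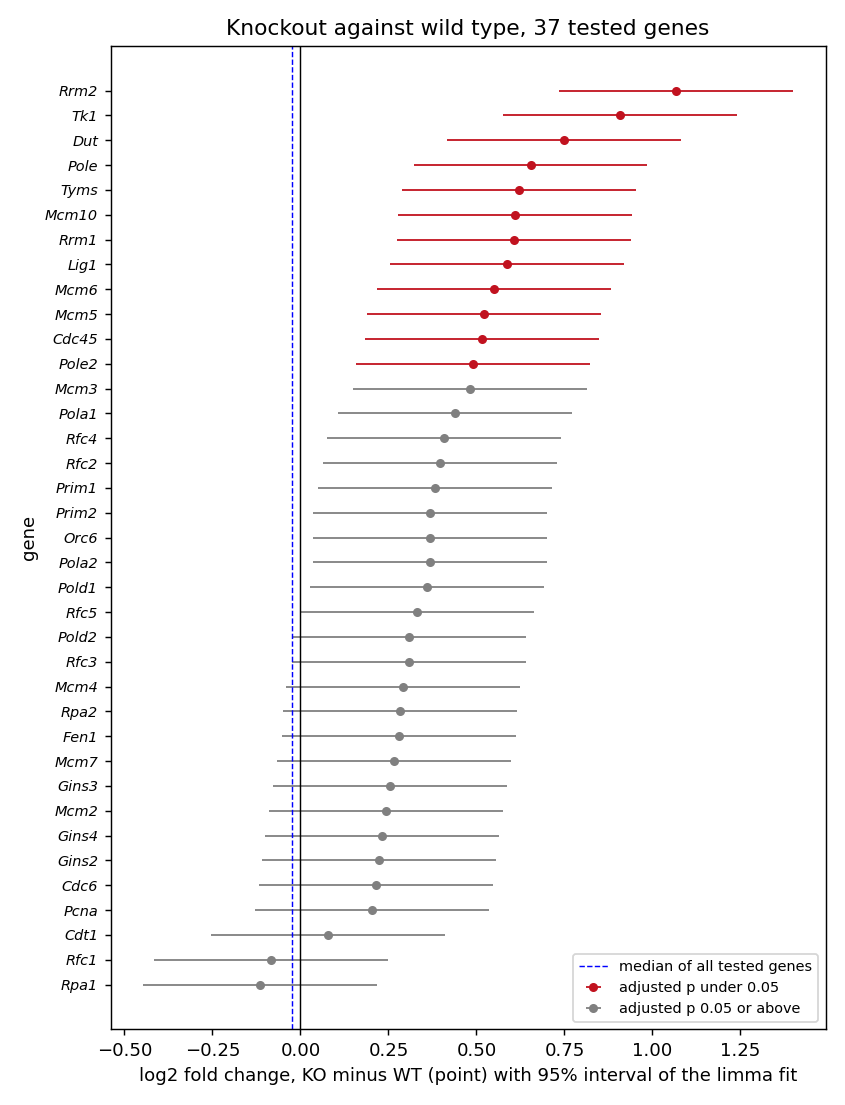
Log2 fold change, knockout minus wild type, of the 37 tested members (points) with the 95% interval of the limma fit (bars); red marks an adjusted p under 0.05 and the dashed line the median of all 13956 tested genes. The 12 called members run from 0.49 for Pole2 to 1.07 for Rrm2, and the points of Rfc1 and Rpa1 lie below 0.

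All 5 genes of deoxynucleotide supply rose. Rrm2, the inducible small subunit of ribonucleotide reductase, read 346 and 311 in wild-type cells against 550.2 and 859 in knockout cells. Its log2 fold change was 1.07 ± 0.17 (pooled SE, limma adjusted p = 3.51e-08). Rrm1, the large subunit of the same enzyme, read 516 and 525 in wild-type cells against 649 and 971 in knockout cells (log2 fold change 0.61, adjusted p = 0.00706). Tk1, the cytosolic thymidine kinase that salvages thymidine in dividing cells, read 203 and 212 in wild-type cells against 333 and 456 in knockout cells (log2 fold change 0.91, adjusted p = 5.18e-06). In all of these the arrays of the 2 genotypes did not overlap, and the second knockout array was the higher one. A further Tk1 probe set read 135 and 147 in wild-type cells against 180.3 and 213 in knockout cells, a log2 difference of 0.47, which is below the smallest change called in the fit (1.40-fold). With the mean of both probe sets the log2 fold change of Tk1 was 0.69 (limma adjusted p = 0.00121). Tyms, which makes thymidylate, read 200.4 and 174 in wild-type cells against 245 and 340.0 in knockout cells (log2 fold change 0.62, adjusted p = 0.00541). Dut, the dUTPase that keeps uracil out of DNA, read 174 and 152 in wild-type cells against 214 and 353 in knockout cells (log2 fold change 0.75, adjusted p = 3.55e-04). Each of the 5 was above both wild-type arrays on either knockout array.

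Among the 10 genes that license origins, 2 of 9 tested rose, both subunits of the MCM2-7 helicase. Mcm5 read 776 and 803 in wild-type cells against 960.1 and 1338 in knockout cells (log2 fold change 0.52, limma adjusted p = 0.0295), and Mcm6 read 453 and 425 in wild-type cells against 556 and 745 in knockout cells (log2 fold change 0.55, adjusted p = 0.0185). The promoter stretches of these genes are those with overlapping E2F letters above. Whether those letters bear on the higher values was not tested. Mcm3, another subunit of the ring, read 209.5 and 201 in wild-type cells against 243 and 339 in knockout cells but missed the threshold (log2 fold change 0.48, adjusted p = 0.0535); it passed with quantile normalization, with median scaling, with a pseudocount of 16 and when only genes above the median intensity were tested. Mcm4 read 478 and 482 in wild-type cells against 488 and 709 in knockout cells, so that only the second knockout array stood apart. Mcm7 read 372 and 402 in wild-type cells against 361 and 599.7 in knockout cells, and its first knockout array was the lowest of the 4. Mcm2 read 391 and 343 in wild-type cells against 383 and 491 in knockout cells, with the first knockout array between the wild-type arrays. The log2 fold changes of Mcm4, Mcm7 and Mcm2 were 0.29, 0.27 and 0.24, and none passed the test.

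The loading factors of the MCM ring did not pass. Orc6, a subunit of the origin recognition complex, read 108 and 116 in wild-type cells against 126 and 166 in knockout cells (log2 fold change 0.37, limma adjusted p = 0.191). Orc1, its largest subunit, read 54.7 and 64.0 in wild-type cells against 65.3 and 81.5 in knockout cells, below the level at which genes were tested. Cdc6, which brings the ring to the origin, read 92.4 and 90.0 in wild-type cells against 92.5 and 121 in knockout cells, with 3 arrays at one level and the second knockout array above them. Cdt1, its partner in loading, read 305 and 339 in wild-type cells against 313 and 368 in knockout cells (log2 fold change 0.08), and its genotypes overlapped. CDT1 and CDC6 are known to be controlled by protein degradation as well as by transcription, which arrays do not measure.

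Of the genes that activate the helicase, 2 of 5 tested rose. Mcm10, which helps the helicase separate the strands, read 131 and 111 in wild-type cells against 154 and 222 in knockout cells (log2 fold change 0.61, limma adjusted p = 0.00672). Cdc45, a core part of the moving helicase, read 137 and 133 in wild-type cells against 176 and 213 in knockout cells (log2 fold change 0.52, adjusted p = 0.0323). The GINS subunits, which join CDC45 and the MCM ring, did not pass. Gins2 read 151 and 139 in wild-type cells against 162 and 177 in knockout cells, Gins3 105 and 86.2 in wild-type cells against 107 and 121 in knockout cells and Gins4 249 and 196 in wild-type cells against 245 and 275 in knockout cells, with log2 fold changes of 0.22, 0.25 and 0.23. In Gins4 the genotypes overlapped, and in Gins3 the first knockout array was level with the higher wild-type array. Gins1 was too dim to be tested and read 87.4 and 63.3 in wild-type cells against 69.0 and 70.5 in knockout cells.

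Polymerase epsilon, which copies the leading strand, had both listed subunits higher. Pole, its catalytic subunit, read 299.8 and 298 in wild-type cells against 363 and 611 in knockout cells (log2 fold change 0.65, limma adjusted p = 0.00291). The 2 wild-type arrays were nearly level and the second knockout array was 1.68 times the first. Pole2, its second subunit, read 125 and 126 in wild-type cells against 174 and 180.03 in knockout cells (log2 fold change 0.49, adjusted p = 0.0463). In Pole2 both genotypes were tight, with a log2 difference of 0.05 between the knockout arrays and 0.02 between the wild-type arrays. Of polymerase delta, which copies the lagging strand, the catalytic Pold1 read 247 and 251 in wild-type cells against 275 and 372 in knockout cells and Pold2 564 and 487 in wild-type cells against 576 and 734 in knockout cells. Their log2 fold changes of 0.36 and 0.31 did not pass (adjusted p = 0.205 and 0.294), although both knockout arrays were above both wild-type arrays.

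None of the 4 subunits of polymerase alpha-primase passed limma's adjusted threshold, while all 4 had an unadjusted p under 0.05. Their genotypes did not overlap, and their log2 fold changes ran narrowly from 0.37 to 0.44. Pola1, the catalytic subunit, read 219 and 218 in wild-type cells against 266 and 331 in knockout cells (adjusted p = 0.0925) and Pola2, the accessory subunit, 222 and 238 in wild-type cells against 241 and 365 in knockout cells. Prim1, which makes the RNA primer, read 104 and 101 in wild-type cells against 105 and 170.0 in knockout cells and its partner Prim2 250.2 and 218 in wild-type cells against 261.5 and 348 in knockout cells. In Pola2 and Prim1 the first knockout array was close to wild type and the second was 1.51 and 1.61 times the first.

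The clamp and its loader had 0 of 6 members called by limma, 2 of them with an unadjusted p under 0.05. Pcna, the clamp, read 1971 and 2036 in wild-type cells against 2029 and 2618 in knockout cells (log2 fold change 0.20, adjusted p = 0.539). A further Pcna probe set held identical values on all 4 arrays, so it added no measurement of its own, and signal from a near-identical copy cannot be told apart from Pcna. Rfc2, Rfc3, Rfc4 and Rfc5, small subunits of the loader, had log2 fold changes between 0.31 and 0.41 with no overlap between genotypes. Rfc4, for example, read 235 and 251 in wild-type cells against 278 and 376 in knockout cells. Rfc2 read 111 and 95.6 in wild-type cells against 122 and 151 in knockout cells, Rfc3 119 and 119.7 in wild-type cells against 139 and 158 in knockout cells and Rfc5 321 and 309.6 in wild-type cells against 359.5 and 439 in knockout cells. Rfc1, the large subunit, went the other way, at 152 and 145 in wild-type cells against 141 and 140.0 in knockout cells (log2 fold change -0.08, adjusted p = 0.835), and was the only tested member lower on the second knockout array than on the first.

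Of the genes that mature lagging-strand fragments, Lig1, the DNA ligase that seals them, rose from 229 and 214 to 264 and 419 (log2 fold change 0.59, limma adjusted p = 0.0103). Fen1, the flap nuclease that trims them, read 143 and 127 in wild-type cells against 160.2 and 167 in knockout cells but missed the threshold (log2 fold change 0.28, adjusted p = 0.360). Neither Rpa1 nor Rpa2, subunits of replication protein A, which coats single-stranded DNA, passed limma's test (0 of these members at an unadjusted p under 0.05). The third subunit, Rpa3, which is not a member, read 328 and 326 in wild-type cells against 378 and 524 in knockout cells (log2 fold change 0.44, adjusted p = 0.0875). Rpa2 read 140.1 and 159 in wild-type cells against 160.1 and 207 in knockout cells (log2 fold change 0.28). Rpa1 read 586 and 536 in wild-type cells against 482 and 557 in knockout cells (log2 fold change -0.11), with the first knockout array the lowest and the second within the wild-type range.

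**Figure D2:**
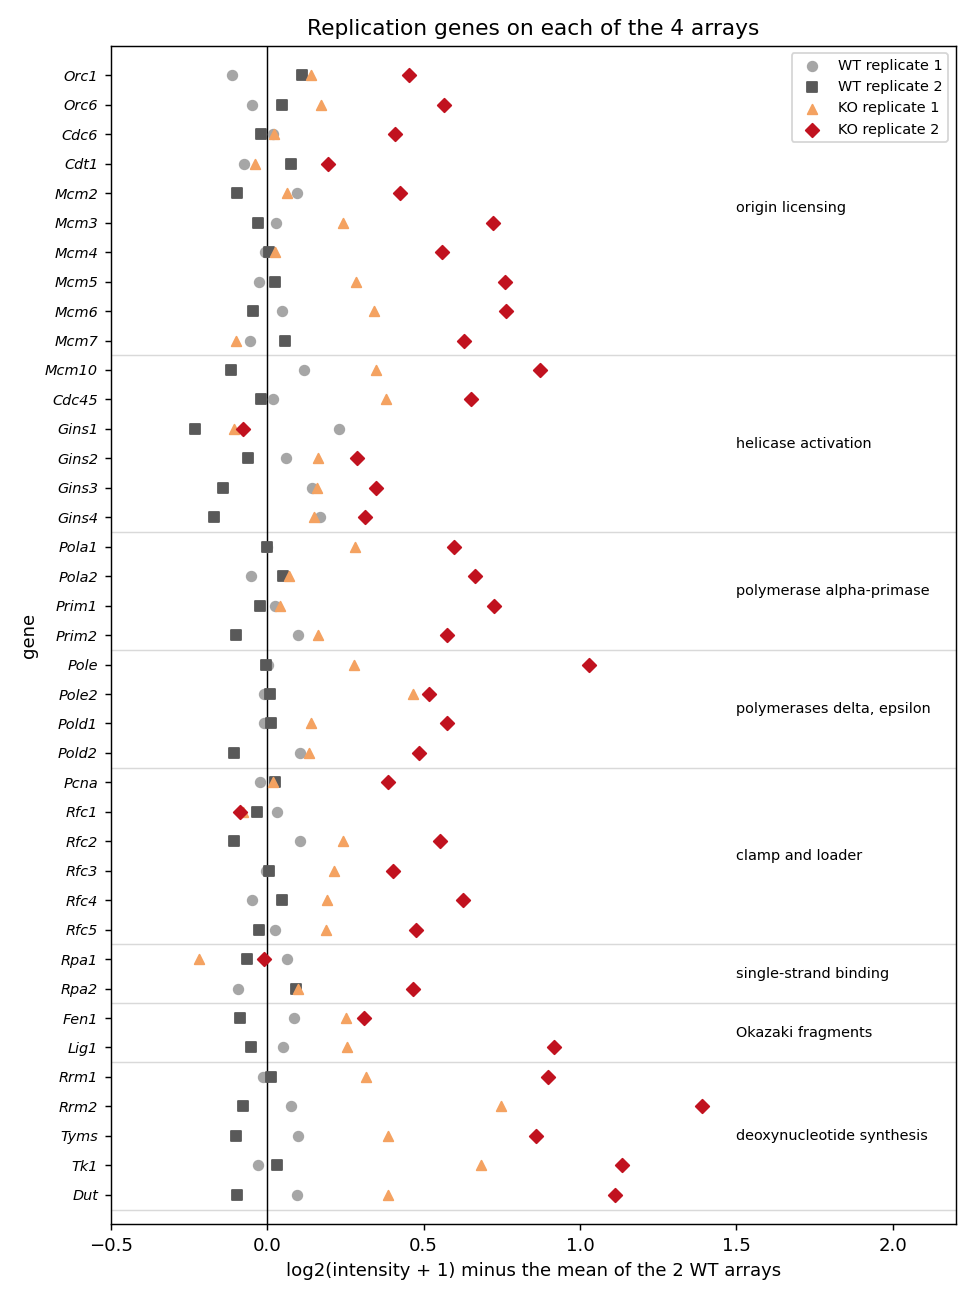
Each of the 39 members on each array, as log2(intensity + 1) minus the mean of the 2 wild-type arrays; grey symbols are wild type, the triangle is knockout replicate 1 and the diamond knockout replicate 2, with members grouped by role. The second knockout array is above the wild-type mean in 35 of the 37 tested members, against 6312 of all 13956 tested genes. The first is above it in 33 of the 37, against 6813 of all tested genes.

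The knockout arrays differed from each other in the size of these values. The second read higher than the first in 36 of the 37 tested members, against 46.2% of all tested genes. The median log2 difference was 0.39 in the members and -0.03 over all tested genes. It passed 1.5-fold in 7 members, Pole (log2 difference 0.75), Mcm7 (0.73), Dut (0.72), Prim1 (0.68), Lig1 (0.66), Rrm2 (0.64) and Pola2 (0.60), against 1.39% of all tested genes. With 1 array on each side there is no test of this difference. The wild-type arrays, compared the same way, had a median log2 difference of -0.05 in the members. Of the 37, 14 were higher on the second, against 6680 of all 13956 tested genes. In either direction 0 members passed 1.5-fold, and 0.201% of all tested genes did. Pole2, Fen1 and Rfc1 differed least between the knockout arrays among tested members, with log2 differences of 0.05, 0.06 and -0.01. Differences by role ran from a median of 0.19 in the helicase activators to 0.58 in the deoxynucleotide genes.

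**Figure D3:**
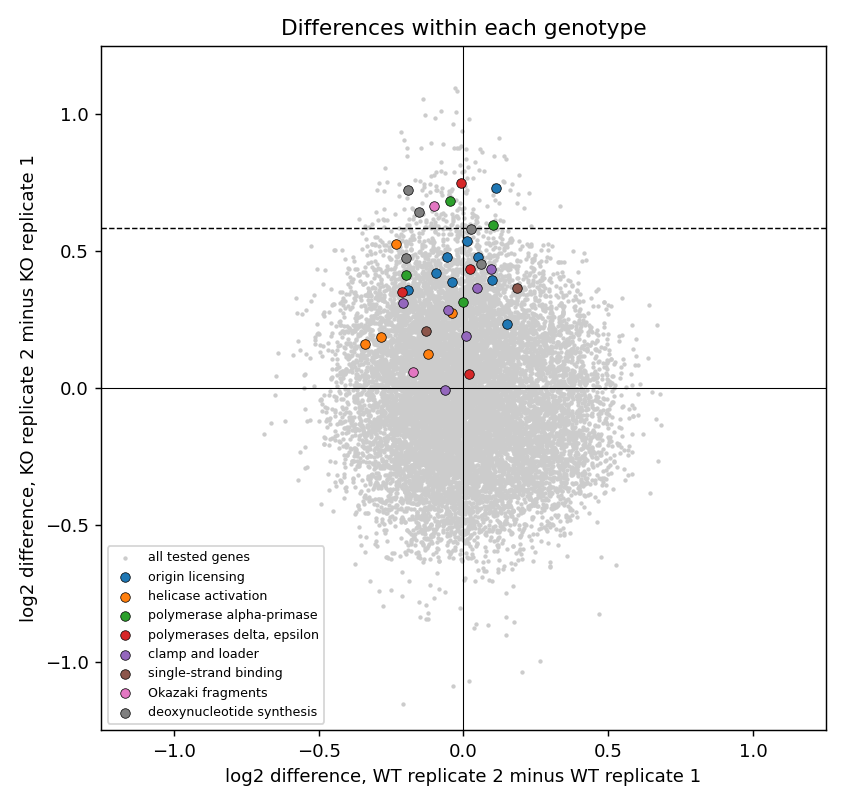
Log2 difference between the 2 knockout arrays (vertical) against that between the 2 wild-type arrays (horizontal) for all 13956 tested genes in grey and the 37 members in colour by role; the dashed line marks 1.5-fold. All members but Rfc1 lie above 0 on the vertical axis, and 7 lie above the dashed line.

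Relative to the wild-type mean, the median member stood at a log2 difference of 0.19 on the first knockout array and 0.58 on the second, beside -0.01 and -0.04 over all tested genes. These distances share the same wild-type arrays. Fitted without the second knockout array, 2 members were higher, Rrm2 (limma adjusted p = 0.00184) and Tk1 (0.00557), and 3.52% of all genes. Fitted without the first, 23 members were higher and 6.58% of all genes; the additional 11 were Orc6, Mcm3, Mcm4, Mcm7, Pola1, Pola2, Prim1, Prim2, Pold1, Rfc2 and Rfc4. Without the second knockout array, 10 of the 12 calls were thus lost. Leaving out a wild-type array also moved the count, to 3 members without wild-type replicate 1 (Rrm2, Tk1 and Dut, with 2.07% of all genes) and 2 without wild-type replicate 2 (Rrm2 and Tk1, with 1.82%). Across these 4 fits the log2 fold change of Rrm2 ran from 0.75 to 1.39. That of Tk1, on the probe set kept, ran from 0.68 to 1.13. The further Tk1 probe set was not fitted with an array left out.

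Other genes of the replication pathway were read as lists set by function. Of 29 tested genes of origins and forks outside the members, 4 were higher and 0 lower with limma, with 14 and 2 at an unadjusted p under 0.05, and a median log2 fold change of 0.28. Ticrr, which encodes treslin and helps load CDC45, read 147 and 158 in wild-type cells against 204 and 369 in knockout cells (log2 fold change 0.84, adjusted p = 3.42e-05). Atad5, which unloads the clamp, read 145 and 138 in wild-type cells against 195 and 213 in knockout cells, and Dna2, a nuclease of fork processing, 85.3 and 72.9 in wild-type cells against 95.2 and 135 in knockout cells; both had a log2 fold change of 0.52. Without the second knockout array 0 of these genes were higher, without the first 10 were, with 1 lower, and without either wild-type array 1 was. Among genes that handle chromatin and its methylation at the fork, 4 of 10 were higher and 0 lower, with a median of 0.39. Asf1b, a histone chaperone of dividing cells, read 416 and 428 in wild-type cells against 583 and 1032 in knockout cells (log2 fold change 0.88). Chaf1a, the large subunit of chromatin assembly factor 1, read 94.3 and 80.8 in wild-type cells against 139 and 150.3 in knockout cells, and Uhrf1, which guides maintenance methylation, 166 and 169.7 in wild-type cells against 222 and 347 in knockout cells. Of the 10, 1 was higher without the second knockout array, 1 with wild-type replicate 2 left out and 2 with wild-type replicate 1 left out.

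The remaining genes of purine, pyrimidine and folate metabolism gave no calls. Of 28 tested, 0 were higher and 0 lower with limma (0 and 5 at an unadjusted p under 0.05), and the median log2 fold change was -0.09. Without the first knockout array 1 was lower, and without the second 2 were. Rrm2b and Tk2, named after their values were seen, are the counterparts of Rrm2 and Tk1 that serve non-dividing cells and mitochondria. Rrm2b read 93.2 and 83.5 in wild-type cells against 91.5 and 80.9 in knockout cells (log2 fold change -0.04, limma adjusted p = 0.933) and Tk2 read 396 and 386 in wild-type cells against 338 and 298 in knockout cells (log2 fold change -0.30, adjusted p = 0.313). Samhd1, which degrades deoxynucleotides in resting cells and was also named after its values were seen, read 2767 and 2710.2 in wild-type cells against 2117 and 1901 in knockout cells (log2 fold change -0.45, adjusted p = 0.0819). The difference between these groups of enzymes was not tested.

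Of 16 genes of the E2F, RB and cyclin E network, 5 were higher and 1 lower, with a median log2 fold change of 0.17. E2f8 and E2f7 encode repressive members of the family and are themselves E2F targets. E2f8 read 298 and 310.1 in wild-type cells against 458 and 840.0 in knockout cells (log2 fold change 1.03), and E2f7 read 156 and 165 in wild-type cells against 224 and 303 in knockout cells (log2 fold change 0.70). Ccne2, a cyclin E gene, read 107 and 111 in wild-type cells against 159 and 224 in knockout cells (log2 fold change 0.78, limma adjusted p = 1.63e-04). The gene that fell was Rb1, which encodes the retinoblastoma protein that restrains E2F, at 1037 and 1073 in wild-type cells against 776 and 725 in knockout cells (log2 fold change -0.49, adjusted p = 0.0464). Without the second knockout array 1 gene of this list was higher and 0 lower; 2 and 3 were higher without wild-type replicates 1 and 2. The activator gene E2f1, named after its values were seen, read 121 and 106 in wild-type cells against 116 and 209 in knockout cells but missed the threshold (log2 fold change 0.46, adjusted p = 0.0747). Of 21 tested mitosis genes, 20 were higher, with a median of 0.79, beside 0.37 in the replication members; Mki67, the gene of the Ki-67 proliferation antigen, and the mitotic cyclin genes Ccnb2 and Ccna2 had the largest changes, with log2 fold changes of 1.13, 1.13 and 1.01. The mitosis list had a median difference of 0.73 between the knockout arrays and 5 genes higher without the second, and 14 and 12 without wild-type replicates 1 and 2. Whether the lists differ from one another was not tested.

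**Figure D4:**
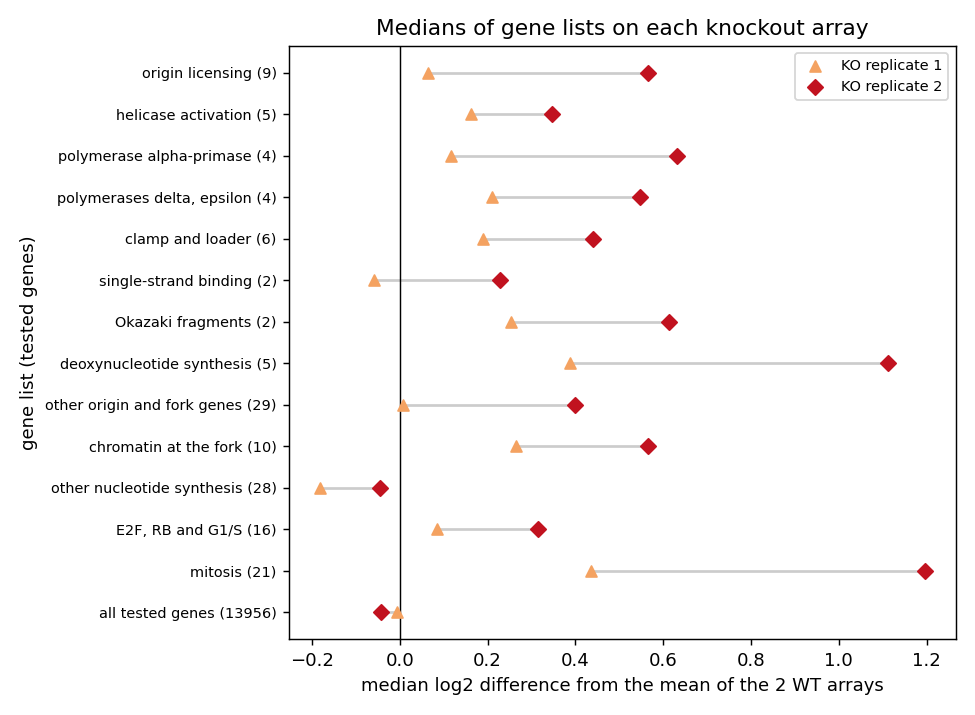
Median log2 difference from the wild-type mean for each role of the members, 5 related gene lists and all tested genes (the number of tested genes in brackets), on knockout replicate 1 (triangle) and knockout replicate 2 (diamond). The second array lies to the right of the first in every list shown, and to its left over all tested genes. Single-strand binding lies below 0 on the first array only, and other nucleotide synthesis and all tested genes on both.

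Markers of Treg cells and of other cells were read beside these results. Of 8 Treg and T cell markers limma called 0 (2 lower and 0 higher at an unadjusted p under 0.05). Their summed intensity was 16343 and 15628 in wild-type cells against 15889.7 and 13939 in knockout cells. Both knockout arrays read below both wild-type arrays in Foxp3, Il2ra and Cd5, and above them in Ikzf2 and Cd3g. Of all 13956 tested genes, 3650 lay below and 3144 above in this way, so these marker counts are not read as particular to Treg genes. Foxp3 read 2016 and 1881 in wild-type cells against 1697 and 1553 in knockout cells. Il2ra read 2579 and 2499 in wild-type cells against 1914 and 1810 in knockout cells (log2 fold change -0.45, limma adjusted p = 0.0831). The lowest intensity of any probe set was 26.6, so no marker could be called absent. All 10 tested macrophage markers of 11 were lower in the knockout, with a summed intensity of 2573 and 2309 in wild-type cells against 1004 and 1214 in knockout cells. The summed intensity of 5 germinal centre B cell markers, cells that divide rapidly, was 508 and 539 in wild-type cells against 656 and 666 in knockout cells; that of 6 erythroid markers was 466 and 500.2 in wild-type cells against 545 and 496 in knockout cells and that of 6 B cell markers 603 and 633 in wild-type cells against 609 and 585 in knockout cells. Of the genes of these 3 lists, 3 B cell, 2 germinal centre and 1 erythroid were bright enough to be tested. Of them limma called 0 (1 higher, S1pr2, and 1 lower, Cd79b, at an unadjusted p under 0.05). Against the wild-type mean, S1pr2 stood at log2 differences of 0.42 and 0.54 on the first and second knockout arrays. Cd79b stood at -0.39 and -0.50. Germinal centre marker S1pr2 read 227 and 253 in wild-type cells against 320.0 and 349 in knockout cells. Mybl1, too dim to be tested, read 49.6 and 52.1 in wild-type cells against 61.2 and 73.6 in knockout cells. Fas and Gcsam had log2 fold changes of 0.18 and 0.24. Rgs13 went the other way, at 41.6 and 40.2 in wild-type cells against 36.9 and 37.8 in knockout cells. Gcsam and Rgs13 were also too dim to be tested. For 6 plasma cell markers the sums were 1868 and 1771 in wild-type cells against 2085 and 2174 in knockout cells. Of the 4 tested, only Prdm1, also an effector Treg gene, was called higher (401 and 341 in wild-type cells against 692 and 624 in knockout cells). Jchain read 149.8 and 119 in wild-type cells against 136 and 205 in knockout cells, with a log2 difference of 0.58 between the knockout arrays, and Xbp1 read 748 and 758 in wild-type cells against 665 and 665 in knockout cells. For 6 markers of CD8 T and NK cells the sums were 783 and 795 in wild-type cells against 1100.0 and 1058 in knockout cells. Of the 4 tested, only Eomes was called higher (109 and 98.9 in wild-type cells against 297 and 342 in knockout cells). Cd8b1, Klrd1 and Cd8a had log2 fold changes of 0.22, 0.18 and 0.10, and Ncr1 and Klrb1c of -0.02 and -0.07. These markers were named after their values were seen. The part of sex, of RNA from other cells or of other differences between the samples in the replication values was not tested.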

How the data were processed

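Biotin-labelled cRNA was hybridised to Affymetrix mouse arrays, per the labels. The authors deposited a linear intensity for each probe set; their summarisation and scaling are not stated in the labels. Array medians were 101, 105, 103 and 99.0. The number of arrays limits the precision.

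Of 35557 probe sets, 21789 had 1 gene symbol in a platform annotation, 1621 several and 12147 none; those with 1 gave 19938 genes, keeping the probe set with the highest mean log2 intensity. After log2(intensity + 1), genes above the 30th percentile of mean (6.29) were tested, 13956 in all, with limma 3.58.1 in R 4.3.3 (lmFit, eBayes, 2 residual degrees of freedom) and Benjamini-Hochberg adjustment over all of them. Every adjusted p is from limma, and the threshold was 0.05. The script was tested on simulated data. Fits that leave out an array keep the same genes. The members and gene lists were chosen with earlier results of these data known. Named genes are all members, the 3 largest called changes and every lower call of each related list, and genes marked as named later. Alternatives covered the filter, scaling, pseudocount, probe set choice, variance model, array weights, replicate block, thresholds and leaving out each array. Promoter windows came from RefSeq (GRCm38.p6).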

Additional observations from a re-analysis of the deposited data

How the results depend on the processing

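The count of 12 members higher in the knockout was between 10 and 13 with no filter, a filter at the median, quantile normalization, median scaling, a pseudocount of 16, other choices of probe set, an intensity trend, robust variances and array weights. It was 7 at an adjusted p under 0.01 and 0 with no pooling of variances, and it ranged from 2 to 23 when 1 array was left out. At the threshold of 0.01, 466 of all 13956 tested genes were higher. In each of these settings 0 members were lower. With the replicate number as a block the count of members higher was 11, Pole2 being lost (limma adjusted p = 0.0678). The labels do not say that numbers pair the arrays, and deviations of same-numbered arrays correlated at -0.09 across genes. Pole2 also missed the threshold with no filter, with robust variances and with an intensity trend, where Cdc45 did too. The median log2 fold change of the members ranged from 0.19 without knockout replicate 2 to 0.58 without knockout replicate 1. Between the knockout arrays, 24 members passed a rise of 25% and 0 a fold of 2, beside 7 at 1.5-fold. The share of all genes is given only at 1.5-fold (1.39%), so the count of 24 is not read as particular to the members. Over all tested genes the log2 difference between the knockout arrays had a standard deviation of 0.27. With 2 arrays a group and a variance borrowed from all genes, changes under 1.40-fold were not called, so members that missed the threshold are not shown to be unchanged.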
